A study of Homo sapiens with 6 samples.

Results

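The B cell receptor signalling genes examined here are a list of 37 symbols, from the receptor chains CD79A and CD79B to the nuclear factors NFATC2 and NFATC3. The members were taken as every probe that the array annotation assigns to these symbols, which gave 71 probes of 35 genes among 47321 probes with a value. PIK3CA and PIK3AP1 had no probe in the annotation used and were not analysed here. A probe was kept if it was detected above the array's negative controls on at least 3 of 6 arrays (detection p-value under 0.05), which 60 of the 71 probes met. They covered 34 of the 10832 genes tested, and NFATC2, a calcium-regulated transcription factor with 2 probes, was left without a test because its probes were detected on 0 and 1 arrays.

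The 6 samples were total RNA of Mec-1, an established human line of malignant B cells that the labels call CLL-like (CLL is chronic lymphocytic leukaemia) and always positive for SLAMF1, the surface receptor CD150. In 3 of them the cells were transfected with a scrambled, non-effective short hairpin RNA (shRNA) as control, and in 3 with an shRNA to silence SLAMF1 in the pGFP-V-RS construct. Each variant was grown in complete medium and has 3 biological replicates per the design text. Clones or cultures are not told apart there, so the p-values cover the spread between these arrays, which may be technical. All 6 arrays lay on 1 chip with the control arrays in the first 3 positions, so an effect of position and one of group cannot be told apart.

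The B cell receptor is a membrane immunoglobulin paired with CD79A and CD79B, whose cytoplasmic tails carry the tyrosine motifs that start the signal. Src-family kinases such as LYN and BLK phosphorylate these tails, SYK docks on them, and the adaptor BLNK then brings BTK and PLCG2 together, while phosphoinositide 3-kinase (PI3K) recruits further proteins to the membrane. Inhibitors of BTK and of PI3K delta are used to treat CLL.

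Before the members, the targeted gene was examined. Its log2 levels were 8.26, 8.38 and 8.01 on the control arrays and 8.70, 8.44 and 8.64 on the arrays labelled SLAMF1 shRNA, so that SLAMF1 was not lower where it was to be silenced (log2 difference 0.38, SE 0.18, limma adjusted p = 0.153, and 0.10 with median centring). This rests on 1 probe, ILMN_1770768, and its place on the transcript was not compared with the site that the hairpin targets. The level at this probe therefore did not show the silencing named by the label, and the reason was not tested. Every direction below is that of the library labelled SLAMF1 shRNA against the library labelled control. Between 17192 and 19586 probes were detected per array, and replicate 2 of the libraries labelled SLAMF1 shRNA stood apart, correlating with replicates 1 and 3 at 0.928 and 0.942 while those correlated at 0.994 (levels of the tested genes, which are not independent of each other). That replicate 2 was also the array with the fewest detected probes, 17192 or 36.33%, against 39.94% to 41.39% on the other arrays. Its mean signal, 208, was the lowest as well. Of the B cell markers, MS4A1, CD22, CD79A and CD79B were detected on all 6 arrays and PAX5 on 1. MS4A1, which encodes CD20, read 8.21 to 8.69 on the control arrays and 5.89 to 7.68 on the others, the lowest on replicate 2. The summed background-corrected intensity of the B cell markers was 1532 to 1756 in the control libraries and 4567 to 6453 in the others. Of 5 T cell, 5 myeloid, 4 NK cell, 3 epithelial and 4 fibroblast markers, CDH1 was detected on all 6 arrays, EPCAM and GNLY on the 3 control arrays alone, CSF1R and KLRF1 on the 3 others alone, and CD3D, CD3E, CD163, KLRD1, NCR1, KRT19 and LUM on no array. The T cell marker CD2 and the myeloid marker LYZ were detected on the 3 control arrays and 2 of the others. CD28 was detected on 2 of the others, CD3G on 1 of the others and CD14 on 1 array of each group. FCGR1A, COL1A1, COL1A2 and DCN were detected on 1 control array each. The summed levels in the control libraries and in the others were 21.0 to 30.4 and 24.5 to 30.8 for T cells, 26.9 to 39.2 and 32.9 to 48.2 for myeloid cells, 20.5 to 28.4 and 16.5 to 35.6 for NK cells, 40.2 to 59.2 and 78.7 to 143.9 for epithelial cells, and 15.9 to 21.9 and 12.6 to 15.8 for fibroblasts. CDH1 alone read 5.42 to 5.84 and 6.45 to 7.26, and EPCAM 4.76 to 5.16 and 4.31 to 4.38. Their part in the results was not tested.

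The receptor chains CD79A and CD79B, the kinase BLK, the PI3K genes PIK3CD and PIK3R1, the Ras activator RASGRP3 and the ubiquitin ligase CBLB were higher in the libraries labelled SLAMF1 shRNA, whereas SYK and the adaptor BANK1 were lower. Of the 34 tested members 9 passed the threshold (limma, adjusted p under 0.05 over all genes), against 24.6% of all 10832 genes, and 26.5% of members is near that background. In the higher direction 7 members passed (20.6%, against 12.9% of all genes), namely CD79A, CD79B, BLK, PIK3CD, PIK3R1, RASGRP3 and CBLB. In the lower direction 2 members, SYK and BANK1, passed (5.88%, against 11.7% of all genes). The median log2 difference of the members was 0.19 beside 0.02 over all genes, with 20 members above 0 and 14 below. The arrays of the groups did not overlap for 17 of 34 members (50%, against 45.7% of all genes). In a cell line array, fewer cells expressing a gene and less RNA per cell cannot be told apart. Without the array labelled SLAMF1 shRNA replicate 2, 13 of 34 members were higher (against 19.6% of all genes) and 2 of 34 lower (against 17.5%). In both directions together, 44.1% of members were called against 37.1% of all genes. With median centring in place of quantile normalization the share of higher genes among all calls was 42.5% rather than 52.5%, and the median of all genes was -0.14 rather than 0.02. With that centring 5 of 34 members were higher (against 7.51% of all genes) and 2 of 34 lower (against 10.2%). In both directions together, 20.6% of members were called against 17.7% of all genes.

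**Figure D1:**
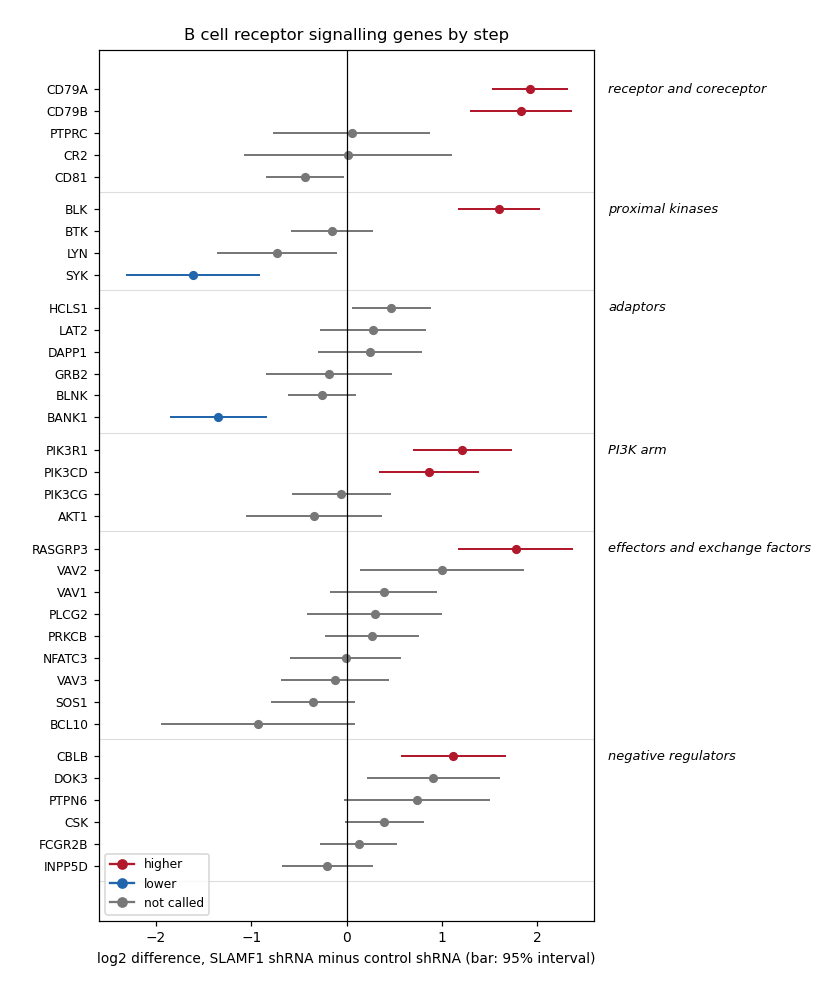
Log2 difference of each of the 34 tested genes between the libraries labelled SLAMF1 shRNA and control (x axis, points) with its 95% interval (bars), grouped by signalling step, with 3 arrays a group. The 7 genes called higher (red) include both receptor chains and the 2 called lower (blue) are SYK and BANK1, while the other 25 (grey) were not called.

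The bases before the gene start are shown for 3 members whose values changed, CD79A and RASGRP3 among the higher and BANK1 among the lower, because they were searched for motifs of transcription factors of B cells. Each is the 250 bases before an annotated start on the plus strand of GRCh38.p14 from RefSeq, at chr19:41877029-41877278 for CD79A, chr2:33436098-33436347 for RASGRP3 and chr4:101790480-101790729 for BANK1. CD79A has 1 such window, RASGRP3 4 and BANK1 2. For RASGRP3 and BANK1 the window shown was picked because it held a match. Capitals mark the letters GAGGAAGT, a sequence that the ETS-family factor PU.1 is known to bind, or its reverse complement:
CD79A: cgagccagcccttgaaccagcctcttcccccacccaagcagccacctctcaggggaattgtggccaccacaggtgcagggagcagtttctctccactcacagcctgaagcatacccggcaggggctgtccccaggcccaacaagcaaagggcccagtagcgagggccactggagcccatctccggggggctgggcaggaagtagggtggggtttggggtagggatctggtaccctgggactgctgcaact
RASGRP3: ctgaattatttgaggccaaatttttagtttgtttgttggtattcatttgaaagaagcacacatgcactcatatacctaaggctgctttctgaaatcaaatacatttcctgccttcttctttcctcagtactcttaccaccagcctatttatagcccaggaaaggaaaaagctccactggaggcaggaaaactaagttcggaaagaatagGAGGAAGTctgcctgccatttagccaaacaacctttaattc
BANK1: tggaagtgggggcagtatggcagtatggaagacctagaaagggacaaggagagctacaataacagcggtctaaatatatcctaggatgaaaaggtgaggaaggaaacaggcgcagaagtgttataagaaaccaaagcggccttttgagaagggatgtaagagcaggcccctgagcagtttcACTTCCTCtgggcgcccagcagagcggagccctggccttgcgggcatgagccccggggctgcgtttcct
The match began 41 bases before the start in RASGRP3 and 69 bases before it, on the reverse strand, in BANK1, and the CD79A window held no match. The G and C content was 64.0% in CD79A, 39.6% in RASGRP3 and 54.0% in BANK1. RefSeq windows were at hand for 32 of the 37 members, 54 windows in all since some genes have several starts. On either strand, GAGGAAGT stood in 7 of the 54 (13.0%), against 2.17% of 35116 windows of all genes, expressed in these cells or not, a contrast that was not tested. Those 7 belonged to RASGRP3, which was higher, SYK and BANK1, which were lower, and BTK, INPP5D, PIK3CG and VAV1, which were not called, so members with the match lay on both sides. The octamer ATTTGCAT, bound by OCT factors, stood in 1 of the 54 windows (PRKCB) against 1.63% of all, and the EBF motif, TCCC and GGGA with any 2 bases between, which reads the same on both strands, in 1 (PTPN6) against 1.06%. No window shown held more than 1 match of the 3 motifs, so none could overlap, and a match of letters is a description of the window.

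Both signalling chains of the receptor were higher. CD79A, probe ILMN_1734878, read 9.28, 9.25 and 9.11 on the control arrays and 11.22, 11.27 and 10.94 on the arrays labelled SLAMF1 shRNA. The 2 sets lay well apart, with means of 9.21 ± 0.09 and 11.14 ± 0.17 (SD, n = 3). That is a 3.82-fold difference (log2 difference 1.93, SE 0.17, adjusted p = 0.000225). CD79B, probe ILMN_2366212, read 9.48, 9.50 and 9.39 against 10.99, 11.76 and 11.10, with the highest value on replicate 2. Its means were 9.46 ± 0.06 and 11.29 ± 0.41 (SD, n = 3), a 3.56-fold difference (log2 difference 1.83, SE 0.23, adjusted p = 0.00107). The 3 CD79B probes gave log2 differences of 1.83 to 1.999, all called in the fit by probe. Of the 3 CD79A probes, 2 were called at 1.93 and 2.11, and the dimmest, detected on 2 of 3 control arrays, gave 0.51 (adjusted p = 0.226). The mean of its 3 probes put CD79A at 1.52, still called.

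The coreceptor genes and the phosphatase gene PTPRC were not called. CD81, a tetraspanin of the B cell surface, read 12.23, 12.28 and 12.28 on the control arrays and 12.03, 11.60 and 11.86 on the others. The groups did not overlap, and the difference was -0.43 (95% interval -0.83 to -0.03, adjusted p = 0.106). With no background correction CD81 just passed as lower (-0.43, adjusted p = 0.04998). CR2, the complement receptor CD21, read 9.84, 9.59 and 9.04 against 10.10, 8.35 and 10.06. Replicate 2 lay below every control array while replicates 1 and 3 lay above them, and the difference was 0.01 (95% interval -1.07 to 1.09). Without replicate 2 it passed as higher at 0.58 (adjusted p = 0.0490, against 0.0490 to 0.994 over its alternatives), and a second probe gave -0.08 with its lowest value on that array too. PTPRC, which encodes CD45, the phosphatase that removes the inhibitory phosphate from Src kinases, was dim, with log2 levels of 4.62 to 5.29 on the control arrays and 5.35, 4.25 and 5.57 on the others. It was not detected on replicate 2, and its difference was 0.05 (95% interval -0.76 to 0.87).

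Among the proximal kinases BLK was higher and SYK lower. BLK, a Src-family kinase of B cells, read 8.47, 8.58 and 8.59 on the control arrays and 9.93, 10.42 and 10.12 on the arrays labelled SLAMF1 shRNA (probe ILMN_1668277). Every array of the second set lay above every control array, with a 3.05-fold difference (means 8.55 ± 0.07 and 10.15 ± 0.25, SD, n = 3; log2 difference 1.61, SE 0.18, adjusted p = 0.000728). SYK, the kinase that docks on the phosphorylated receptor tails, read 8.03, 8.81 and 8.25 against 6.20, 7.15 and 6.89 (probe ILMN_2059549). It was 3.06-fold lower without overlap (means 8.36 ± 0.40 and 6.75 ± 0.49, SD, n = 3; log2 difference -1.62, SE 0.30, adjusted p = 0.00705), and the call held in each of the 15 alternatives, at -1.17 to -1.88. Each of these genes rests on 1 probe.

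The other kinases were not called. LYN, which both starts receptor signalling and feeds its inhibitory arm, read 9.82, 10.29 and 10.36 against 9.41, 8.98 and 9.89. Its highest array of the second set lay just above the lowest control array, and the difference was -0.73 (95% interval -1.35 to -0.11, adjusted p = 0.0839). It passed as lower when the array labelled SLAMF1 shRNA replicate 3 was left out (-0.96, adjusted p = 0.0479). BTK, the target of ibrutinib, read 9.64, 9.93 and 9.90 against 9.71, 9.46 and 9.85. The groups overlapped, with a difference of -0.15 and a 95% interval of -0.57 to 0.27 that leaves room for a change of either sign.

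Of the 6 adaptors BANK1 was called, and it was lower. BANK1, a B cell scaffold that binds LYN, read 6.67, 7.01 and 6.50 on the control arrays and 5.66, 5.08 and 5.40 on the others (probe ILMN_1661646). The groups did not overlap, and the gene was 2.54-fold lower (means 6.73 ± 0.26 and 5.38 ± 0.29, SD, n = 3; log2 difference -1.35, SE 0.22, adjusted p = 0.00385). The call held in each of the 15 alternatives, but the size depended on background handling for this dim probe, at -0.67 with no background correction and -0.89 with an offset of 50. BLNK, the scaffold that joins SYK to BTK and PLCG2, was near the background with levels of 5.27 to 5.37 against 5.02 to 5.12. Its groups lay apart by a small margin, with a difference of -0.26 (95% interval -0.60 to 0.09, adjusted p = 0.25).

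HCLS1, an actin-binding substrate of SYK and LYN, read 10.17, 10.44 and 10.61 against 10.95, 10.81 and 10.87. Its difference of 0.47 missed the threshold (95% interval 0.07 to 0.88, adjusted p = 0.0871) and passed as higher in 4 of 15 alternatives, among them the fit that omits the array labelled SLAMF1 shRNA replicate 2 (0.50, adjusted p = 0.0408). LAT2, a transmembrane adaptor also called NTAL, gave 0.28 by the probe with the highest level (adjusted p = 0.427), 0.86 by a second and 0.05 by the dimmest. The second was called in the fit by probe (adjusted p = 0.0379). On replicate 2 of the libraries labelled SLAMF1 shRNA these 3 probes disagreed in direction, since the second read 10.37 against 9.63 and 9.71 on the other replicates and the dimmest 5.11 against 6.87 and 6.77. LAT2 passed as higher without that array (0.52, adjusted p = 0.0238). GRB2, which links receptors to the Ras exchange factor SOS1, gave -0.18 by 1 probe and 0.52 by another, and DAPP1, a phosphoinositide-binding adaptor, gave 0.25 and -0.52. Neither gene was called, and for both the sign depended on the probe.

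Of the class IA PI3K genes, the members PIK3R1 and PIK3CD were higher, while PIK3CB and PIK3R3 of the wider pathway list were not called. The member PIK3CA, of the same class, was not analysed. PIK3R1, which encodes the regulatory subunit p85 alpha and shorter forms, read 7.03, 7.11 and 7.16 on the control arrays and 8.11, 8.77 and 8.07 on the others (probe ILMN_1760303). This 2.32-fold difference did not overlap (means 7.10 ± 0.07 and 8.32 ± 0.39, SD, n = 3; log2 difference 1.22, SE 0.22, adjusted p = 0.00630). Of its other probes, 1 was called at 0.68 and 1 gave 0.46 (adjusted p = 0.0877). A further probe was detected on 2 arrays labelled SLAMF1 shRNA and on no control array. On replicate 2 it was not detected, at 4.34 beside 4.21 to 4.31 on the control arrays. Taking the bound for the controls and that undetected level as read, it was 1.70-fold higher, without a test. The mean of the kept probes put the gene at 0.79. PIK3CD, which encodes the catalytic subunit delta, read 7.70, 8.28 and 7.87 against 8.59, 9.12 and 8.75 (probe ILMN_1766275). The lowest array of the second set lay above the highest control array, with a 1.83-fold difference (means 7.95 ± 0.30 and 8.82 ± 0.27, SD, n = 3; log2 difference 0.87, SE 0.22, adjusted p = 0.0255). PIK3CD missed the threshold with median centring (0.60, adjusted p = 0.0550) and when dim probes were kept (adjusted p = 0.0521). It also missed it when any of 3 arrays was omitted, at adjusted p = 0.0899 for the first control, 0.104 for the third control and 0.0661 for SLAMF1 shRNA replicate 3.

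PIK3CB and PIK3R3 are named here after their values were seen. PIK3CB, the catalytic subunit beta, read 5.93, 6.61 and 6.54 against 6.01, 4.22 and 6.09 and was not detected on replicate 2, with a difference of -0.92 (95% interval -2.03 to 0.20, adjusted p = 0.202) that was -0.31 without that array. PIK3R3, a regulatory subunit near the background, read 4.94, 5.11 and 5.11 against 4.56, 4.68 and 4.76. Its groups lay apart on the lower side (-0.38, 95% interval -0.75 to -0.02, adjusted p = 0.115), and it passed as lower when dim probes were kept (adjusted p = 0.0442).

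The class IB subunit and the kinase downstream were not called. PIK3CG, the catalytic subunit gamma, gave -0.05 (95% interval -0.57 to 0.46) by its brighter probe and 0.73 by the other (adjusted p = 0.0579), whose groups did not overlap. AKT1, the kinase activated by the lipid product of PI3K, read 9.27, 10.11 and 9.78 against 9.46, 8.85 and 9.83. The arrays of the groups were interleaved, and the difference was -0.34 (95% interval -1.05 to 0.36, adjusted p = 0.447).

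**Figure D2:**
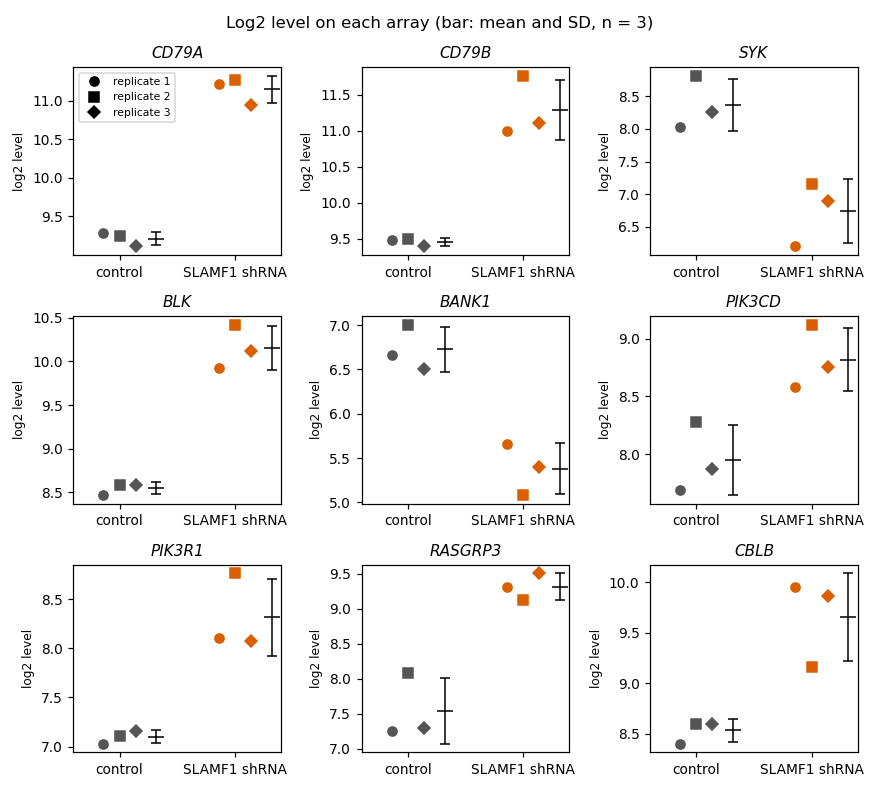
Log2 level of the 9 called genes on each array (y axis, a scale of its own in each panel), with controls in grey, arrays labelled SLAMF1 shRNA in orange, symbols for the replicates, and bars for mean and SD (n = 3). The groups do not overlap in any panel, and replicate 2 of the second set is highest within it for CD79A, CD79B, BLK, SYK, PIK3CD and PIK3R1 and lowest for CBLB, BANK1 and RASGRP3.

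Of 9 tested effectors and exchange factors RASGRP3 was called. RASGRP3, a Ras activator that responds to the diacylglycerol made by PLCG2, read 7.25, 8.08 and 7.29 on the control arrays and 9.31, 9.12 and 9.51 on the others (probe ILMN_1727045). The spread among the controls, set by replicate 2, was smaller than the gap between groups, and the gene was 3.42-fold higher (means 7.54 ± 0.47 and 9.31 ± 0.19, SD, n = 3; log2 difference 1.78, SE 0.26, adjusted p = 0.00228). Its relative RASGRP1, another Ras activator, from the wider pathway list and named after its values were seen, was lower. RASGRP1 read 5.84, 5.79 and 5.84 against 4.86, 4.84 and 4.61 (log2 difference -1.06, SE 0.16, adjusted p = 0.00282), called in all 14 alternatives that gave it a value, with a size of -0.39 when background was not corrected. VAV2, a guanine nucleotide exchange factor, read 6.21, 5.90 and 6.07 against 6.40, 7.96 and 6.82. The groups did not overlap, but replicate 2 carried much of the difference of 1.0 (95% interval 0.15 to 1.85, adjusted p = 0.0841). Without that array it was 0.56 and passed (adjusted p = 0.0301), as it did at 1.33 without replicate 1 of the same set (adjusted p = 0.0258). Its relatives VAV1 (0.39, 95% interval -0.16 to 0.94) and VAV3 (-0.12, 95% interval -0.68 to 0.44) were not called.

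PLCG2, the phospholipase that produces the calcium and diacylglycerol signals, read 10.15, 10.86 and 10.64 against 11.18, 10.24 and 11.12. Replicate 2 lay among the controls and the other replicates above them, and the difference was 0.30 (95% interval -0.40 to 0.99). It passed as higher at 0.59 without replicate 2 (adjusted p = 0.0393). PRKCB, the protein kinase C that carries the signal to NF-kappaB, was measured by 5 probes. They ran from -0.17 to 0.66, with 1 called as higher in the fit by probe (adjusted p = 0.0409), and the probe with the highest level gave 0.27 (95% interval -0.22 to 0.75). BCL10, a signalling partner of MALT1, read 6.10, 6.07 and 6.57 against 5.84, 4.21 and 5.91 and was not detected on replicate 2. Its difference was -0.93 (95% interval -1.94 to 0.08, adjusted p = 0.160), and a second, dimmer probe gave 0.00. SOS1, a Ras exchange factor, gave -0.35 (95% interval -0.79 to 0.08) near the background, and NFATC3, a relative of NFATC2, gave -0.01 (95% interval -0.58 to 0.57) with its 4 probes between -0.23 and 0.24.

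CBLB, a ubiquitin ligase that limits antigen receptor signalling, was the called gene among 6 negative regulators. It read 8.40, 8.59 and 8.60 on the control arrays and 9.95, 9.16 and 9.86 on the others (probe ILMN_1685580). Each array of the second set lay above the controls, although replicate 2 by less, and the gene was 2.18-fold higher (means 8.53 ± 0.11 and 9.66 ± 0.43, SD, n = 3; log2 difference 1.12, SE 0.24, adjusted p = 0.0117). CBLB missed the threshold with median centring (0.85, adjusted p = 0.130) and when the first or the third control was omitted (adjusted p = 0.0531 and 0.0512).

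The other negative regulators were not called. DOK3, an adaptor that recruits the phosphatase INPP5D, read 4.34, 4.99 and 4.53 against 5.16, 6.15 and 5.29 and was not detected on 1 control array. Its groups did not overlap, with a difference of 0.91 (95% interval 0.22 to 1.60, adjusted p = 0.0595), which passed when SLAMF1 shRNA replicate 1 (1.08, adjusted p = 0.0426) or 2 (0.66, adjusted p = 0.0244) was omitted, and was 0.32 with no background correction. PTPN6, the phosphatase SHP-1, read 9.14, 9.56 and 9.20 against 9.55, 10.81 and 9.77. It was highest on replicate 2, and the difference was 0.74 (95% interval -0.01 to 1.49, adjusted p = 0.136). CSK, the kinase that adds the inhibitory phosphate to Src kinases, gave 0.40 (95% interval -0.01 to 0.80) with no overlap between groups. INPP5D, the lipid phosphatase SHIP1, gave -0.20 (95% interval -0.67 to 0.26), and FCGR2B, the inhibitory Fc receptor, gave 0.13 (95% interval -0.27 to 0.52) with 3 probes from -0.09 to 0.36. Probes of FCGR2B may also detect its near-identical neighbour FCGR2C, so its values are uncertain in that respect.

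Several probes of a gene did not always move together. Of the 34 tested members, 15 had more than 1 kept probe, and in 8 of these the probes had differences of both signs. Among the 60 kept probes, 13 were higher and 2 lower in the fit over all 19073 kept probes (25.0% called, against 18.7% of all kept probes; 21.7% higher against 9.24% and 3.33% lower against 9.42%). The probes of a gene share their transcripts and arrays and are not independent. The called probes of genes that were not called themselves belonged to LAT2 and PRKCB.

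**Figure D3:**
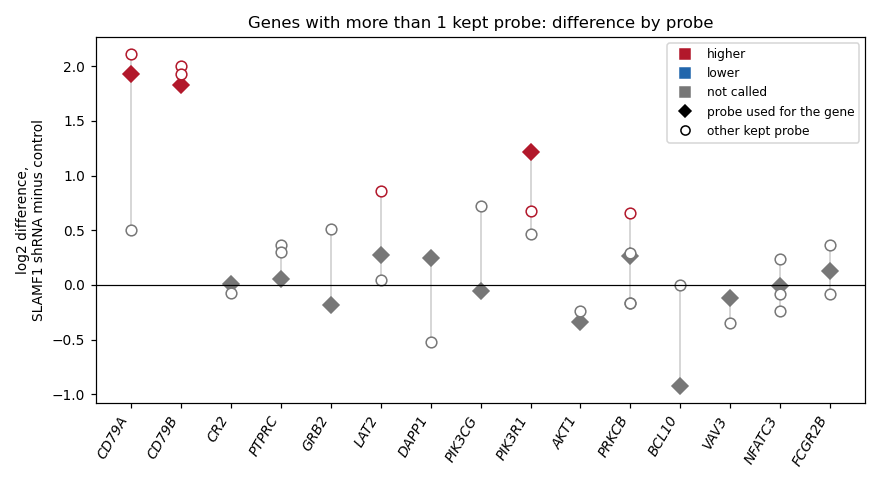
Log2 difference (y axis) of each kept probe of the 15 genes with more than 1 kept probe (x axis), where diamonds mark the probe used for the gene, open circles the other probes, and red a call as higher in the fit by probe. The 3 CD79B probes lie together between 1.83 and 1.999, whereas the LAT2 probes spread from 0.05 to 0.86.

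Replicate 2 of the libraries labelled SLAMF1 shRNA departed from the other replicates across the members. Over the 60 kept probes its median absolute distance from the mean of replicates 1 and 3 was 0.492 on the log2 scale, while replicates 1 and 3 differed from each other by a median of 0.149. Over all 10832 genes the same distances were 0.432 and 0.137, close to those of the members. It was lower by more than 1 for 7 probes, of CR2, PTPRC, LAT2, PRKCB and BCL10, and higher by more than 1 for 2, of VAV2 and PTPN6 (15.0% of the probes, against 15.3% of all genes). Without it, CR2, LAT2, HCLS1, PLCG2, VAV2 and DOK3 joined the 7 higher members and no member joined the 2 lower, while all 9 calls remained.

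**Figure D4:**
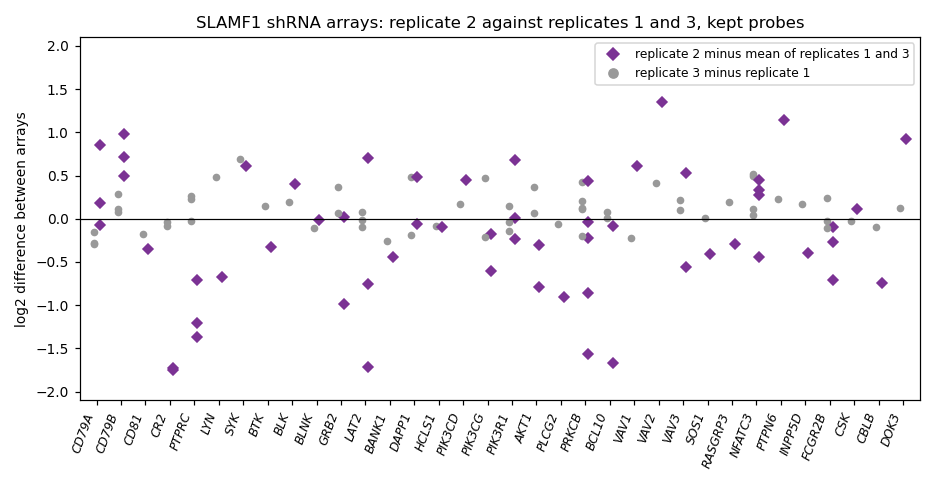
For each kept probe of the tested genes (x axis), the log2 distance of replicate 2 of the libraries labelled SLAMF1 shRNA from the mean of replicates 1 and 3 (purple diamonds) and of replicate 3 from replicate 1 (grey circles). The purple points spread from -1.75 for CR2 to 1.35 for VAV2, wider than the grey.

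The tested genes lying nearest to the called members in the genome showed no common direction. Among the 10 tested genes on either side of each, taken in the order of the RefSeq gene table, the median log2 difference ran from -0.34 around PIK3R1 to 0.28 around PIK3CD, and for 6 of the 9 it had the sign opposite to the member's. Around CD79A it was 0.24 and around CD79B -0.19. SYK, which was lower, lay among genes with a median of 0.20, of which 5 of 20 were higher and 0 lower. PIK3CD had 7 of 20 neighbours called higher and 1 lower. Over all genes tested, 12.9% were called higher and 11.7% lower.

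Other genes of the pathway went both ways. Of 56 further genes listed, 43 were tested, of which 4 were higher and 4 lower (18.6% called, against 24.6% of all genes), with a median log2 difference of -0.14. The Src-family kinase gene FGR, known mainly from myeloid cells and some B cells, read 7.30, 7.51 and 7.26 on the control arrays and 10.97, 10.38 and 11.08 on the others. It was the member of this list with the largest difference, 3.46 (SE 0.22, adjusted p = 5.46e-05), with its other probes at 3.42 and 0.33. CD22, an inhibitory receptor of B cells, gave 2.37 (SE 0.32, adjusted p = 0.00179), and MAPK3, the kinase ERK1, gave 0.89 (SE 0.16, adjusted p = 0.00665), a call lost with median centring (0.61, adjusted p = 0.0568). Among the lower genes, ITPR1, a calcium release channel opened by the product of PLCG2, read 7.58, 7.35 and 7.38 against 5.80, 5.39 and 5.67, a difference of -1.82 (SE 0.18, adjusted p = 0.000366). MALT1, the protease that acts with BCL10, gave -1.54 (SE 0.17, adjusted p = 0.000668) and -0.69 by a second probe. It lies on chromosome 18, where the median of its neighbours was -0.29 with 5 of 20 lower and 0 higher (against 11.7% and 12.9% of all genes). CHUK, a kinase of the IkappaB kinase complex, gave -1.08 (SE 0.17, adjusted p = 0.00391).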

How the data were processed

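Gene expression was measured with Illumina beadchips in 6 samples of Mec-1 cells, 3 per group. The signal intensities were deposited per probe and array, without background subtraction or normalization per the file headers, and come from GenomeStudio per the submitters' processing notes. Its version is not given in the sources used here. A detection p-value was deposited with each intensity, per the file headers. A second deposited table holds normalized intensities whose method the labels do not state. Quantile normalization of the signals gave 100% of these values to within 1%. Of 47323 probes listed, 2 had no value. Symbols came from the platform annotation, updated through gene identifiers against RefSeq (GRCh38.p14), which gave 30113 probes 1 symbol and left 8 with several unnamed.

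R 4.3.3 and limma 3.58.1 were used. Background was corrected with nec, which estimates it through the detection p-values. An offset of 16 was added, so differences of dim genes are understated. Values were then quantile-normalized on the log2 scale. Probes detected on at least 3 arrays (19073) were kept, and the probe with the highest mean represented its gene. All 6 arrays entered lmFit and eBayes without a covariate, with Benjamini-Hochberg adjustment over all genes or all probes and a threshold of 0.05, and the fit was tested on simulated data. A probe undetected on every array of a group has a bound there, computed from the lowest detected signal of each array. Having 3 arrays per group limits the precision.

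The members, the steps and the lists were chosen with earlier results of these data known. Every member is named, and of the other pathway genes up to 3 per direction with the largest difference past the threshold, plus 3 relatives of members named after their values were seen. Alternatives left out the background correction, used an offset of 50, centred medians over all or (chosen after seeing the data) over kept probes, took the second table, kept dim probes, asked for detection at 0.01 on every array, averaged a gene's probes, blocked on replicate number or omitted 1 array at a time.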

Additional observations from a re-analysis of the deposited data

How the results depend on the processing

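Of the 9 called members, CD79A, CD79B, BLK, PIK3R1, RASGRP3, SYK and BANK1 kept their call and sign in all 15 alternatives, PIK3CD in 10 and CBLB in 12, as given beside each. The count of higher members ran from 5 to 13 over the leave-one-out fits (13 when SLAMF1 shRNA replicate 2 was omitted) and that of lower members from 2 to 3. Higher member probes numbered 8 with median centring and 8 to 25 over the leave-one-out fits (8 when control replicate 1, control replicate 3 or SLAMF1 shRNA replicate 3 was omitted, and 25 for SLAMF1 shRNA replicate 2). Over all genes, 1400 were higher and 1269 lower. The higher count was 814 with median centring and 674 to 2118 over the leave-one-out fits (848, 826 and 674 for control replicates 1, 2 and 3, and 2118 for SLAMF1 shRNA replicate 2). The lower count was 830 when detection at 0.01 was asked for on every array, which tests 7809 genes, and 626 to 1896 over the leave-one-out fits (732 and 626 for control replicates 2 and 3, 790 for SLAMF1 shRNA replicate 3 and 1896 for SLAMF1 shRNA replicate 2).

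Some members that were not called changed sign, and the cause was not tested. CR2 gave -0.29 with median centring, -0.058 with centring over kept probes and -0.032 by the mean of its probes. FCGR2B gave -0.16 with median centring. The mean of the probes turned GRB2 to 0.17, DAPP1 to -0.14 and PIK3CG to 0.34. Over the leave-one-out fits CR2 ran from -0.29 to 0.58, PTPRC from -0.20 to 0.49, GRB2 from -0.37 to 0.14, PIK3CG from -0.21 to 0.15, VAV3 from -0.30 to 0.080 and NFATC3 from -0.26 to 0.13.

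The replicate numbers were not taken to pair the arrays, since deviations of same-numbered arrays from their group means correlated at -0.205, -0.14 and 0.21 and control replicate 1 correlated best with replicate 2 of the other set (0.264). With the replicate number as a block, 8 members were higher and 2 lower, against 1107 and 961 of all genes, and DOK3 joined the higher (adjusted p = 0.0273). PTPRC, SOS1, BCL10 and DOK3 were undetected on 1 array each, so their differences rest partly on background.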
